A study of Mus musculus with 12 samples.

Results

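The E-protein genes Tcf3, Tcf12 and Tcf4 and the inhibitor genes Id1, Id2 and Id3 were followed through RNA-seq of mouse thymus and T-cell lymphoma. These 6 genes were chosen by symbol among the 50600 gene IDs of the count files, with earlier results of these data known. All 6 passed the low-count filter that left 16052 genes to test. RNA came from 12 mice, 3 in each of 4 groups. Ctrl were thymocytes of DNMT1 fl/fl mice, in which Dnmt1, the enzyme that copies DNA methylation after replication, is flanked by loxP sites and intact. KO were thymocytes of DNMT1 fl/fl CD4-CRE mice, in which Cre driven from the Cd4 locus deletes Dnmt1 in T cells. ALK were T cell lymphoma cells of NPM-ALK+ mice, whose human fusion kinase is driven by the Cd4 promoter and enhancer. ALKKO were thymocytes of mice that carried both NPM-ALK+ and DNMT1 fl/fl CD4-CRE. The labels give no Dnmt1 allele for the ALK mice. The mice had a mixed C57Bl/6xSV/129 background and were 19 to 31 wk old by the labels, with ALK library 3 from the oldest. Tissue was homogenized as a whole and no cells were sorted for the RNA, and ALK is the only group from a tumor, so tumor tissue and NPM-ALK with intact Dnmt1 cannot be told apart.

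E proteins are basic helix-loop-helix transcription factors that bind DNA as dimers at the E box, a short palindromic motif. In thymocytes they drive the rearrangement and expression of T-cell receptor genes and hold cells at developmental checkpoints. ID proteins have the helix-loop-helix but lack the basic region that touches DNA, so an E protein paired with an ID protein cannot bind. Signals through the pre-T-cell receptor and the T-cell receptor raise Id3, and BMP signals raise Id1, Id2 and Id3. Tcf3 encodes E12 and E47, which arise by splicing, Tcf12 encodes HEB, and Tcf4 encodes E2-2, known best for its part in plasmacytoid dendritic cells. Counts per gene do not separate the splice forms.

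Since E proteins bind at the E box (CANNTG, which reads the same on both strands), its matches are in capitals below. The stretches before the starts of Tcf3 and Tcf12, the E-protein genes with the most reads, are shown. Both are from RefSeq on GRCm38.p6, 5′ to 3′ on the minus strand, and lie outside every exon of GENCODE M21.
Tcf3 upstream, chr10:80433648-80433885: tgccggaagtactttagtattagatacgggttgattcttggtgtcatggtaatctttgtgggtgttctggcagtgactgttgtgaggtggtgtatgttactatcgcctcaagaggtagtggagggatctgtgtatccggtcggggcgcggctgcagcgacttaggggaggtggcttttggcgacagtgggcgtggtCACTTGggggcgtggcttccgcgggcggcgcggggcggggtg
Tcf12 upstream, chr9:72111872-72112069: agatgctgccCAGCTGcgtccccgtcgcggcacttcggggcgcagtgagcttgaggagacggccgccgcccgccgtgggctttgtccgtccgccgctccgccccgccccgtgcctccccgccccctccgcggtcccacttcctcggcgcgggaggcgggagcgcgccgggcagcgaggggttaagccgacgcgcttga
The Tcf3 stretch held 1 E box and the Tcf12 stretch held 1. RefSeq windows of 300 bases (250 before and 50 after the start) were at hand for 4 of the 6 genes. The Tcf3 window held 1 E box, the 3 Tcf12 windows held 1, 2 and 1, the Id2 window held 1 and the Id3 window held 0. The Tcf12 stretch shown is from 1 of its 3 windows. Another of these windows has a stretch of 249 bases outside every exon, with 1 E box, that is not shown. Of all 32851 windows, 72.3% held at least 1 E box and 39.6% held at least 2, so at least 1 match is what most promoters have.

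The libraries held 12473857 to 18864327 reads on genes. Expression is given as CPM, the reads on a gene scaled to one common library size after TMM normalization, for each library or as mean ± SD over 3 mice. The Dnmt1 level followed the labels (399 to 486 CPM in Ctrl and 206 to 243 in KO), and reads on the mouse Alk gene did too (at most 0.431 CPM in Ctrl and KO, 34.8 to 54.9 in ALK and ALKKO). Several libraries stood apart in marker genes of other cell types. In KO2 the summed B-cell markers reached 2437 CPM against 12.2 to 126 in the other 11 libraries, while its T-cell and thymocyte markers summed to 3476 CPM against 6508 to 9405 in the other thymus libraries. The cardiac list summed to 5216 CPM in KO3 and to at most 22.6 elsewhere. In ALK the T-cell and thymocyte markers summed to 2301 to 2643 CPM, below every other group, and the fibroblast list to 939 to 2431 CPM against 205 to 357 in Ctrl. In such bulk samples, fewer cells of a type and less RNA per cell cannot be told apart.

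All E-protein genes were higher in ALK than in Ctrl in every library, and only Tcf4 passed both thresholds. The Id genes did not move together: Id1 and Id2 had higher means, Id3 a lower one, and their ALK and Ctrl libraries overlapped. Genes were tested with edgeR's quasi-likelihood test and called at a Benjamini-Hochberg adjusted p under 0.05 with an absolute log2 fold change above 1. In ALK against Ctrl, 1 of the 6 genes was called, beside 20.4% of all genes tested (8.41% called higher in ALK). The groups did not overlap for 3 of the 6, beside 46.4% of all genes (21.3% with ALK higher). The median log2 fold change of the 6 genes was 0.57, and that of all genes was 0.05.

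**Figure D1:**
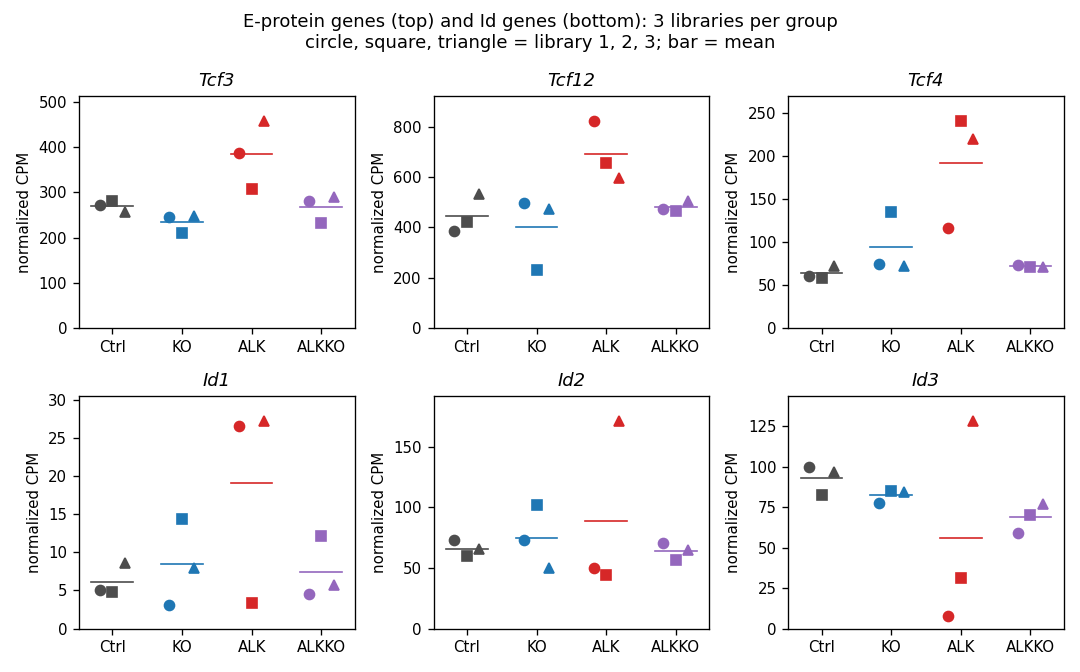
Normalized CPM (y axis, linear from 0, a separate scale per gene) of the 6 genes in the 12 libraries, by group (x axis), with markers for libraries 1, 2 and 3 and a bar at the mean. The E-protein genes of the top row have their highest means in ALK, whereas the Id genes of the bottom row spread over the widest range in ALK.

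Tcf4 (chr18:69343356-69689079, plus strand, GRCm38) had 61.1, 58.4 and 72.1 CPM in Ctrl and 116, 242 and 220 CPM in ALK. It had 74.2, 135 and 72.6 CPM in KO and 73.6, 71.3 and 70.7 CPM in ALKKO. The ALK libraries were all above Ctrl and ALKKO, the lowest being ALK1, which lay below KO2. Tcf4 rose by 1.59 on the log2 scale in ALK against Ctrl (SE 0.30, edgeR adjusted p = 0.00376), a fold of 3.02. The difference was also called in ALK against ALKKO (log2 fold change 1.42, SE 0.30, edgeR adjusted p = 0.00656), where again 1 of the 6 genes was called, beside 19.6% of all genes, and 3 of the 6 did not overlap, beside 43.2%. Both comparisons share the ALK libraries. When edgeR tested for a fold beyond the threshold itself (glmTreat), neither call held, at adjusted p = 0.0839 and 0.179.

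Tcf4 is also a gene of plasmacytoid dendritic cells, B cells, endothelium and fibroblasts, whose markers were therefore read beside it. In ALK the B-cell list summed to 12.2 to 33.4 CPM, below the 70.5 to 124 of Ctrl. The endothelial list reached 224 to 317 CPM in ALK, and Ctrl had 214 to 291. The plasmacytoid dendritic list summed to 41.1, 758 and 2183 CPM in ALK and 246 to 281 in Ctrl, where 727 and 2131 CPM of ALK2 and ALK3 were Ly6d, and 3 of its 6 genes were called, all lower in ALK. Of the 7 fibroblast genes 3 were called, the collagen genes Col1a1, Col1a2 and Col3a1, all higher in ALK, beside 8.41% of all genes called higher. Dcn, which encodes decorin, had 108 ± 25.6 CPM in Ctrl and 35.2 ± 11.4 CPM in ALK, and Pdgfra had a log2 difference of 0.31, neither called. The highest sum of the list (2431 CPM) was in ALK1, the ALK library with the least Tcf4. None of the markers of these lists was at the floor of 3 counts in every library. The part of these cells in the Tcf4 level was not tested.

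Tcf3 (chr10:80409514-80433647, minus strand) had 272, 281 and 256 CPM in Ctrl and 386, 308 and 458 CPM in ALK. It had 246, 210 and 248 CPM in KO and 280, 233 and 289 CPM in ALKKO. All ALK libraries lay above all others, with the smallest gap to ALKKO3. The log2 difference to Ctrl was 0.51 (SE 0.16, edgeR adjusted p = 0.0338) and that to ALKKO 0.52 (SE 0.16, edgeR adjusted p = 0.032), so both passed the p threshold but not the fold threshold. The difference to Ctrl missed the p threshold under 13 of 21 alternatives and that to ALKKO under 12, the former with age in the fit (adjusted p = 0.115), without any 1 Ctrl library (adjusted p = 0.0841 to 0.12) or without ALK3 (adjusted p = 0.0994).

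Tcf12 (chr9:71842688-72111871, minus strand) had 384, 422 and 532 CPM in Ctrl and 824, 657 and 596 CPM in ALK. It had 499, 232 and 474.2 CPM in KO and 473, 464 and 506 CPM in ALKKO. The ALK libraries were again above all others, and KO2 was the lowest of the 12. The log2 difference was 0.63 to Ctrl (SE 0.26, edgeR adjusted p = 0.0925) and 0.53 to ALKKO (SE 0.26, edgeR adjusted p = 0.157), and neither passed the test. Without KO2 the difference to Ctrl was 0.60 and passed the p threshold (adjusted p = 0.0183), as did that to ALKKO (adjusted p = 0.0415). With sex in the fit both passed it too (adjusted p = 0.014 and 0.0313). Since KO2 is the only female library, the sex term takes up that same library and is not a separate check. For each E-protein gene the exact two-sided permutation test of ALK against Ctrl gave p = 0.1, the smallest that 3 mice against 3 allow.

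Id3 (chr4:136143497-136145755, plus strand), the inhibitor most closely tied to T-cell receptor signals, had 100, 82.3 and 96.6 CPM in Ctrl and 7.58, 31.5 and 128 CPM in ALK. It had 77.8, 85.1 and 84.5 CPM in KO and 59.2, 70.4 and 77.2 CPM in ALKKO. ALK1 and ALK2 were the lowest of the 12 libraries and ALK3 was the highest. The log2 difference between ALK and Ctrl was -0.74 (SE 0.69, edgeR adjusted p = 0.443). It was -2.27 without ALK3 (adjusted p = 0.00689, called), so that library decided the call.

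Id2 (chr12:25093799-25097140, minus strand), which innate lymphoid and natural killer cells need, had 72.8, 59.6 and 65.9 CPM in Ctrl and 49.8, 44.1 and 172 CPM in ALK. It had 72.8, 102 and 50.4 CPM in KO and 71.0, 56.3 and 64.5 CPM in ALKKO. Here too ALK3 was the highest of the 12 libraries, and ALK1 and ALK2 were the lowest. The log2 difference between ALK and Ctrl was 0.42 (SE 0.46, edgeR adjusted p = 0.512). Its sign turned without ALK3 (-0.51, adjusted p = 0.155) and once age by the labels entered the fit (-0.37, adjusted p = 0.526).

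Id1 (chr2:152736251-152737410, plus strand), a target of BMP signals, had the lowest mean CPM of the 6 genes in every group. Per kb of exon Tcf4 was lower than Id1, but per kb of median coding transcript it was higher. It had 5.07, 4.82 and 8.56 CPM in Ctrl and 26.6, 3.31 and 27.2 CPM in ALK. It had 3.07, 14.4 and 7.87 CPM in KO and 4.59, 12.1 and 5.68 CPM in ALKKO. ALK1 and ALK3 were the highest libraries, while ALK2 was lower than every Ctrl library. The log2 difference between ALK and Ctrl was 1.63 (SE 0.77, edgeR adjusted p = 0.131), and without ALK2 it was 2.11 and called (adjusted p = 0.038). Id4, the remaining family member, had 4.33, 7.28 and 3.55 CPM in Ctrl and 0.537, 10.2 and 18.3 CPM in ALK, and its log2 difference was 0.94 (SE 0.95, edgeR adjusted p = 0.48). Exons of Id4 overlap antisense genes, and since the strand setting of the counting is not given in the sources used here, its level is uncertain.

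**Figure D2:**
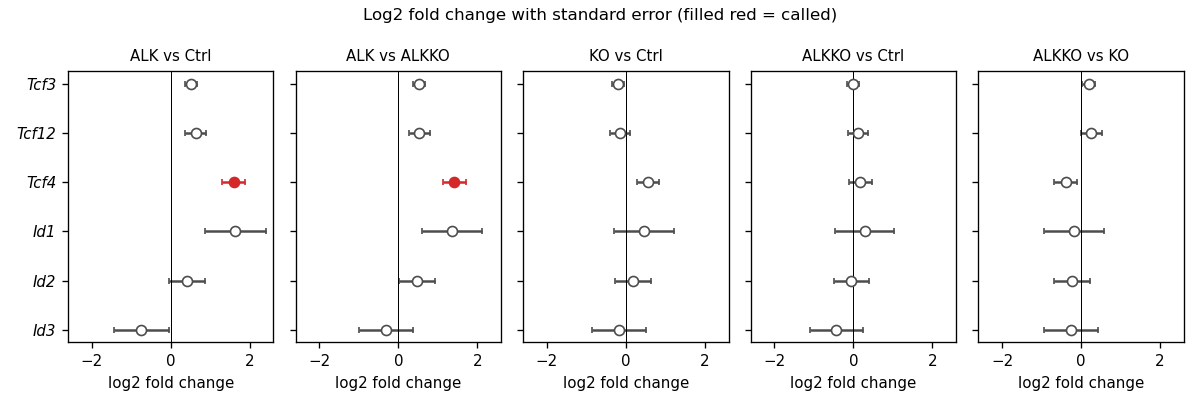
Fitted log2 fold change (x axis) of the 6 genes (y axis) in the 5 comparisons between groups, with standard errors as bars and called genes filled in red. Tcf4 is called in both comparisons that hold ALK (1.59 and 1.42), and no gene is called in the other comparisons.

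The tumors differed from each other in the Id genes more than in the E-protein genes. The coefficient of variation over the 3 ALK libraries was 115% for Id3, 81.3% for Id2 and 71.5% for Id1, against 19.5% for Tcf3, 17.1% for Tcf12 and 34.9% for Tcf4. In Ctrl it was 10.2%, 9.94% and 34.0% for Id3, Id2 and Id1. The ratio of the highest to the lowest ALK library, after adding 1 CPM to each, was 15.1 for Id3, 6.53 for Id1 and 3.83 for Id2. Among 13503 genes that averaged 1 CPM or more in ALK, 2.67% spread more widely than Id3, 7.22% more widely than Id1 and 14.0% more widely than Id2. The same ratio was 1.49 for Tcf3, 1.38 for Tcf12 and 2.07 for Tcf4, which 61.9%, 70.8% and 34.4% of genes exceeded, and the median gene had 1.67. In ALKKO the widest of the 6 genes was Id1 (2.35), and the others had 1.04 to 1.30 beside a median gene of 1.27.

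**Figure D3:**
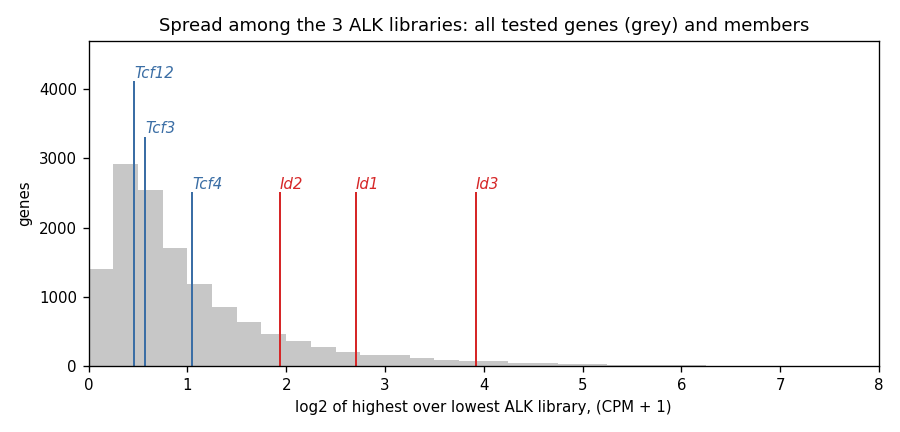
Histogram of the log2 ratio of the highest to the lowest of the 3 ALK libraries (x axis, CPM plus 1) over 13503 genes (y axis, number of genes), with lines at the E-protein genes in blue and the Id genes in red. The E-protein genes lie within the bulk of the genes and the Id genes in the upper tail, Id3 farthest out at a ratio of 15.1.

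The highest Id2 and Id3 levels were both in ALK3, which differed from the other tumors in other ways. Its mouse was 31 wk old by the labels, against 24 and 22 wk for ALK1 and ALK2. The text of the study gives 1 younger age for the sequenced mice, so these ages are uncertain. Its proliferation genes summed to 1888 CPM against 4336 and 4001 CPM in ALK1 and ALK2, and its macrophage markers to 1337 CPM against 599 and 495 CPM. The natural killer and innate lymphoid list, whose cells use Id2, summed to 1.17 CPM in ALK3 and 0.537 and 0.610 CPM in ALK1 and ALK2, all below the 12.6 to 22.4 CPM of Ctrl. The part of age, proliferation and macrophages in the Id levels was not tested.

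Since a long transcript yields more fragments, levels were compared between genes as normalized CPM per kb of exon, and no test was made on them. In Ctrl, Tcf3 stood at 66.8 ± 3.23 CPM per kb, Tcf12 at 28.7 ± 4.95 and Tcf4 at 2.33 ± 0.266 (SD, n = 3), without overlap. Among the inhibitors Id3 stood at 51.9 ± 5.28, Id2 at 27.1 ± 2.70 and Id1 at 5.30 ± 1.80 CPM per kb. Per kb of exon, Tcf12 and Id2 were thus neighbours in Ctrl that did not differ beyond their spread. The E-protein order depends on the length used: the union of all exons is 15529 bases for Tcf12 and 27382 for Tcf4, whereas their median coding transcripts have 4308 and 2348 bases. Per kb of median coding transcript, a choice made after the data were seen, Ctrl had 103.5 ± 17.8 for Tcf12, 94.9 ± 4.60 for Tcf3 and 27.2 ± 3.10 for Tcf4, and Tcf12 and Tcf3 overlapped. By this length Id2 stood at 52.1 ± 5.18 in Ctrl, without overlap with Tcf12. With either length Tcf4 was the lowest E-protein gene in the mean of each of the 4 groups. Its share of the summed E-protein level was 2.38% ± 0.238 in Ctrl and 4.91% ± 2.08 in ALK per kb of exon. Per kb of transcript it was 11.2% to 12.6% in Ctrl and 13.1% to 28.3% in ALK.

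The summed E-protein level per kb of exon was 94.4, 98.9 and 100.2 in Ctrl, 95.6, 71.9 and 94.5 in KO, 153, 127 and 160 in ALK, and 102, 90.1 and 107 in ALKKO. All ALK libraries were above the other 9. The summed level of Id1, Id2 and Id3 was 90.1, 74.5 and 88.4 in Ctrl, 76.0, 102 and 74.7 in KO, 47.6, 38.5 and 166 in ALK, and 66.2, 72.8 and 74.5 in ALKKO. ALK held both the lowest libraries (ALK1 and ALK2) and the highest (ALK3). The log2 ratio of the E-protein sum to the ID sum was therefore 1.68 and 1.73 in ALK1 and ALK2 but -0.05 in ALK3, which lay below all Ctrl libraries (0.07 to 0.41). In KO2 the ratio was -0.50, against 0.33 and 0.34 in the other KO libraries, and in ALKKO it was 0.31 to 0.63. Per kb of median coding transcript the ratio was 2.42, 2.54 and 0.59 in ALK and 0.59 to 0.94 in Ctrl, so ALK1 and ALK2 were again the highest of the 12.

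**Figure D4:**
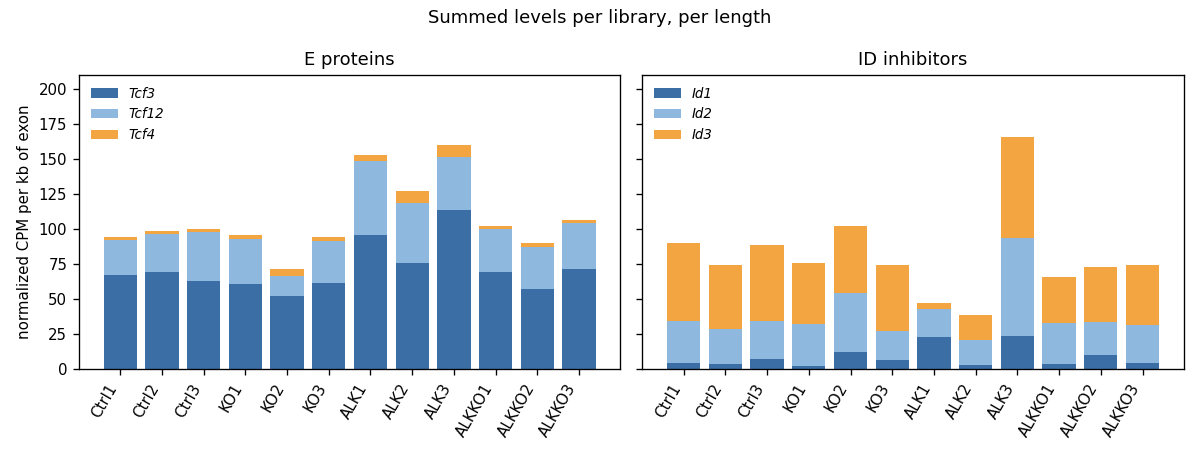
Stacked levels (y axis, normalized CPM per kb of exon, from 0) of the E-protein genes (left) and the Id genes (right) in each of the 12 libraries (x axis). The E-protein bars of ALK reach 127 to 160 and stand above all others, whereas the ID bars of ALK range from 38.5 to 166.

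The make-up of the ID sum differed among the tumors and from that of Ctrl. Id3 made up 61.0% to 62.0% of it in Ctrl and at most 57.9% in ALKKO, but 8.89%, 45.6% and 43.3% in ALK. Id1 made up 48.2% in ALK1 and at most 14.3% in every other library. Id2 made up 42.5% to 47.0% in ALK and 30.6% to 33.1% in Ctrl, with 27.7% to 41.1% in KO and 31.7% to 44.0% in ALKKO, whose highest library lay within the ALK range. Id3 made up 46.7% in KO2, near ALK2 and ALK3.

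Deletion of Dnmt1 without NPM-ALK left the 6 genes without a call. Dnmt1 itself was not called by edgeR in KO (log2 -0.95, adjusted p = 0.787) or ALKKO (log2 -0.99, adjusted p = 0.259) against Ctrl. Yet its libraries did not overlap with Ctrl in either comparison, so a missing call does not show that a gene was unchanged. In KO against Ctrl 0 of the 6 genes were called, beside 0.0187% of all genes, and 0 had an unadjusted p under 0.05, beside 5.52%, by edgeR's quasi-likelihood test. DESeq2's Wald test and the other alternatives called 0 as well. The adjusted p values ran from 0.864 to 0.983 and the log2 fold changes from -0.20 (Tcf3) to 0.56 (Tcf4). Groups did not overlap for 2 of the 6 genes, Tcf3 (lower in KO) and Tcf4 (higher in KO), beside 12.4% of all genes. The Tcf4 difference was largely that of KO2, at 135 CPM against 72.6 and 74.2 CPM in the other KO libraries, and it was 0.20 without that library. KO2 was also the highest thymus library for Id1 and Id2 and the lowest of the 12 for Tcf3 and Tcf12. Without it the log2 fold changes of all 6 genes lay between -0.19 and 0.20, with Tcf12, Id1 and Id2 turned in sign. KO2, the only library from a female mouse, was the library with the most B-cell reads. Among the thymus libraries it also had the highest sums of plasmacytoid dendritic (833 CPM), endothelial (697 CPM) and macrophage markers (2905 CPM). Its sum of thymic epithelial markers (126 CPM) was the lowest of them. The part of all these cells and of sex in the values of KO2 was not tested.

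NPM-ALK in Dnmt1-deleted thymocytes likewise left the 6 genes without a call. In ALKKO against KO 0 of the 6 genes were called, beside 0.00623% of all genes, and in ALKKO against Ctrl 0, beside 0.181%. In both comparisons 0 had an unadjusted p under 0.05 (2.69% and 3.18% of all genes), and DESeq2's Wald test also called 0. All adjusted p values by edgeR were 0.9998. Only Id3 did not overlap between the groups: it was lower in ALKKO than in Ctrl (log2 -0.43, SE 0.68) and than in KO (log2 -0.26, SE 0.68), beside 17.5% and 6.34% of all genes without overlap in these comparisons (7.56% and 2.24% lower). The SE of Id3 comes from a fit that takes the spread over all groups, ALK included. For Tcf3, ALKKO and Ctrl means were 267 ± 30.1 and 270 ± 13.1 CPM, a log2 difference of -0.01 (SE 0.16). For Tcf4, ALKKO had 71.9 ± 1.53 CPM and Ctrl 63.9 ± 7.29 CPM (log2 0.17, SE 0.29).

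The difference that goes with NPM-ALK was set against Dnmt1 status by an interaction term, the log2 change of ALKKO against KO minus that of ALK against Ctrl. It was called for 1 of the 6 genes, beside 8.93% of all genes. Tcf4 had an interaction of -1.98 (SE 0.41, edgeR adjusted p = 0.0179), made of -0.39 within Dnmt1-deleted thymocytes and 1.59 without the deletion. Without KO2 it was -1.59 (adjusted p = 0.0213, called), and the part within Dnmt1-deleted thymocytes was -0.03. Without Ctrl1, Ctrl2 or ALKKO3 it was -1.92, -1.89 and -1.94 and missed the threshold, at adjusted p = 0.0584, 0.0542 and 0.053. For Tcf3 the term was -0.32 (SE 0.22) and for Tcf12 -0.37 (SE 0.37). For Id1, Id2 and Id3 it was -1.81 (SE 1.07), -0.65 (SE 0.64) and 0.48 (SE 0.97), and none of these 5 passed the test. Without ALK3 the Id3 term was 2.02 and called (adjusted p = 0.0485). Tumor and thymus tissue differ in the same term.

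E proteins work with partners and cofactors that are not ID proteins. Of 22 class II basic helix-loop-helix factors, which pair with E proteins, 10 were expressed enough to test. Beside 20.4% of all genes called in either direction in ALK against Ctrl, 3 of these 10 fell and 0 rose. Among these were Msc, a repressor known from B cells and muscle (8.92, 7.44 and 9.31 CPM in Ctrl, 0.872, 1.66 and 0.312 in ALK, log2 fold change -3.17, edgeR adjusted p = 0.00172), and the glial factor Olig1 (0.317 to 1.13 CPM in Ctrl and 0 in ALK, adjusted p = 0.0379), which fell outside the naming rule. Since Olig1 had no read in ALK no fold is given, and its call was lost under 10 of 19 alternatives, without any Ctrl or ALK library, KO3 or ALKKO3 among them. The list median was -1.70, or -1.27 with genes at or under the floor of 3 counts in ALK set to that floor. The leukemia-associated partners Tal1 and Lyl1, named after their values were seen, had 0.872 to 1.22 and 0.939 to 5.47 CPM in ALK and 0.642 to 2.42 and 3.23 to 3.53 CPM in Ctrl, with overlap. Lyl1 and its partner Lmo2 were highest in KO2, at 55.4 and 106 CPM. Among 13 cofactors 1 was called, beside 20.4% of all genes: the acetyltransferase gene Kat2a rose from 71.7 ± 5.52 to 188.5 ± 52.9 CPM (log2 fold change 1.39, edgeR adjusted p = 0.00177).

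Genes that E proteins regulate in developing lymphocytes moved in both directions. Of the 15 on this list 14 were tested. In ALK against Ctrl 4 rose and 4 fell, beside 20.4% of all genes called in either direction. The median log2 fold change of the list was -0.07. Notch1, which drives early T-cell identity, had 224, 218 and 233 CPM in Ctrl and 4081, 1991 and 1083 CPM in ALK (log2 fold change 3.41, edgeR adjusted p = 0.000553). Cdk6, a cell-cycle kinase gene, had 140 to 141 CPM in Ctrl and 347, 740 and 226 CPM in ALK (log2 fold change 1.64, adjusted p = 0.00975). Under glmTreat Cdk6 was not called (adjusted p = 0.126). In ALKKO, Notch1 had 319.5, 336 and 392 CPM and Cdk6 had 284.5, 229 and 270 CPM, all above Ctrl. By edgeR neither was called there (log2 0.63 and 0.89, adjusted p = 0.9998 each). For Cdk6, ALK against ALKKO was not called either (log2 0.75, edgeR adjusted p = 0.151). Socs3, a feedback inhibitor of STAT3 signals, rose with a log2 fold change of 2.29 (adjusted p = 0.0134), and Hes1, a Notch target, with 1.47 (adjusted p = 0.0178). Socs3 was no longer called without Ctrl2 or Ctrl3 (adjusted p = 0.0504 and 0.0528), nor Hes1 without any 1 of the Ctrl libraries (0.0589 to 0.0649). In ALKKO Socs3 had 304, 235 and 238 CPM against 26.3 to 32.5 CPM in Ctrl. This difference (log2 3.16) was one that edgeR did not call (adjusted p = 0.0958) but DESeq2's Wald test did (adjusted p = 8.12e-06). The edgeR fit called it under 4 of the other alternatives, among them the fits without KO2 (adjusted p = 0.0339) and without ALK2 (adjusted p = 0.0358), and over all alternatives its adjusted p went up to 0.579.

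On the side of the falls, Rag2, one of the recombinase genes, went from 349, 422 and 334 CPM in Ctrl to 82.0, 26.4 and 11.2 CPM in ALK (log2 fold change -3.20, edgeR adjusted p = 0.00713). Cd4 had 1407, 1352 and 1286 CPM in Ctrl and 35.2, 27.5 and 116 CPM in ALK (log2 fold change -4.50, adjusted p = 0.00065). Cd4, Ptcra and Rag1 of this list are also among the T-cell and thymocyte markers, whose sum in ALK lay below that of every other group. The part of fewer thymocytes in these falls was not tested. The cell-cycle inhibitor gene Cdkn1a also fell (log2 fold change -1.38, adjusted p = 0.0478), though its call was lost under 12 of 21 alternatives, without any Ctrl or ALK library, KO1 or ALKKO1 among them. Ptcra, the pre-T-cell receptor chain, and Dntt, the terminal transferase, are classical E-protein targets and were not called in ALK against Ctrl. The log2 fold change was 2.07 for Ptcra (edgeR adjusted p = 0.0595) and -0.03 for Dntt (edgeR adjusted p = 0.967). Against ALKKO, Ptcra was called higher in ALK (log2 fold change 2.33, edgeR adjusted p = 0.0421). Ptcra had 424, 142 and 32.5 CPM in ALK and 46.3 to 48.9 in Ctrl, and Dntt had 1603, 2938 and 1053 CPM in ALK and 1825 to 2058 in Ctrl. Rag1 is listed at 0 in all 12 libraries, also in Ctrl with 334 to 422 CPM of Rag2. The reason was not tested, so this 0 is not read as absence of the transcript. By edgeR none of the 14 tested genes was called in KO or ALKKO against Ctrl, and by DESeq2's Wald test Socs3 alone was, in ALKKO.

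The inputs of the Id genes were read next. Of 21 genes of BMP and TGF-beta ligands, receptors and SMADs, 3 rose and 1 fell in ALK against Ctrl, about the share called among all genes (20.4%), with a median of -0.05. Bmp7, a ligand, had 33.3, 33.4 and 23.8 CPM in Ctrl and 139, 449 and 179 CPM in ALK (log2 fold change 3.08, edgeR adjusted p = 0.0026). Acvr1, a type I receptor, had 5.07, 4.92 and 6.73 CPM in Ctrl and 7.31, 32.6 and 15.8 CPM in ALK (log2 fold change 1.73, adjusted p = 0.0229), and Smad5, which carries BMP signals, had 147, 161 and 128 CPM in Ctrl and 179, 397 and 340.4 CPM in ALK (log2 fold change 1.07, adjusted p = 0.0101). Bmp6 had 1.16, 0.749 and 2.69 CPM in Ctrl and 0.268, 0.174 and 0.390 CPM in ALK (log2 fold change -2.43, adjusted p = 0.0261). Acvr1 lost its call without any Ctrl library or without ALK2, Smad5 without Ctrl3, ALK2 or ALK3, and Bmp6 without Ctrl3, ALK1 or ALK2. Acvr1 was also not called when only the compared groups were fitted (adjusted p = 0.0729), Smad5 under a stricter count filter (log2 fold change 0.98) and Bmp6 with age in the fit (adjusted p = 0.0708), and none of these 3 under glmTreat (adjusted p = 0.117 to 0.634). The library with the most Bmp7, Acvr1 and Smad5 was ALK2, but some other genes of the list were highest among the tumors in ALK3. Bmp2, among these and not called (edgeR adjusted p = 0.131), had 42.6 CPM in ALK3 and 0.201 and 0.262 CPM in ALK1 and ALK2. The part of BMP signals in the Id levels was not tested.

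The early growth response genes, which carry T-cell receptor signals to Id3, fell in ALK. Of the 4 genes 3 were tested, with a median log2 fold change of -3.47. All 3 were called lower, beside 20.4% of all genes called in either direction. Egr2 had 44.0, 33.3 and 33.1 CPM in Ctrl and 2.15, 2.27 and 5.54 CPM in ALK (log2 fold change -3.47, edgeR adjusted p = 0.000451), and Egr3 had 5.07, 4.12 and 4.52 CPM in Ctrl and 0.335, 0 and 0.547 CPM in ALK (log2 fold change -3.90, adjusted p = 0.00801). Egr1 had 170, 156 and 119 CPM in Ctrl and 78.3, 8.11 and 15.0 CPM in ALK (log2 fold change -2.13, adjusted p = 0.0368), and its call was lost under 11 of 21 alternatives, without any Ctrl library, ALK2, ALK3, ALKKO1 or ALKKO3 among them. Egr2 and Egr3 were low in all tumors. In ALKKO the list had a median of -0.48 and no gene was called by edgeR or DESeq2.

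Transcription factors and the receptor of innate-like lymphocytes, which depend on Id2, are the last list. In ALK against Ctrl 4 of its 8 genes fell and 0 rose, beside 20.4% of all genes called in either direction. The median log2 fold change of the list was -1.33. Il2rb, a chain of the IL-15 receptor, had 41.6 CPM or more in each Ctrl library and 3.69, 0.959 and 1.87 CPM in ALK (log2 fold change -4.33, edgeR adjusted p = 0.00181). Zbtb16, the factor PLZF of natural killer T cells, had 4.90 to 18.8 CPM in Ctrl and 0.805, 0.174 and 0.547 CPM in ALK (log2 fold change -4.50, adjusted p = 0.00751). Rora fell as well (log2 fold change -1.85, adjusted p = 0.00335). Eomes had 0.642 to 1.85 CPM in Ctrl and at most 0.0872 CPM, 1 read per library, in ALK (adjusted p = 0.0224), a call lost without Ctrl1, Ctrl3 or any ALK library (0.0509 to 0.0625). Of the 6 natural killer and innate lymphoid markers, which share Eomes with this list, 5 were called lower in ALK, and the part of fewer such cells was not tested.

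**Figure D5:**
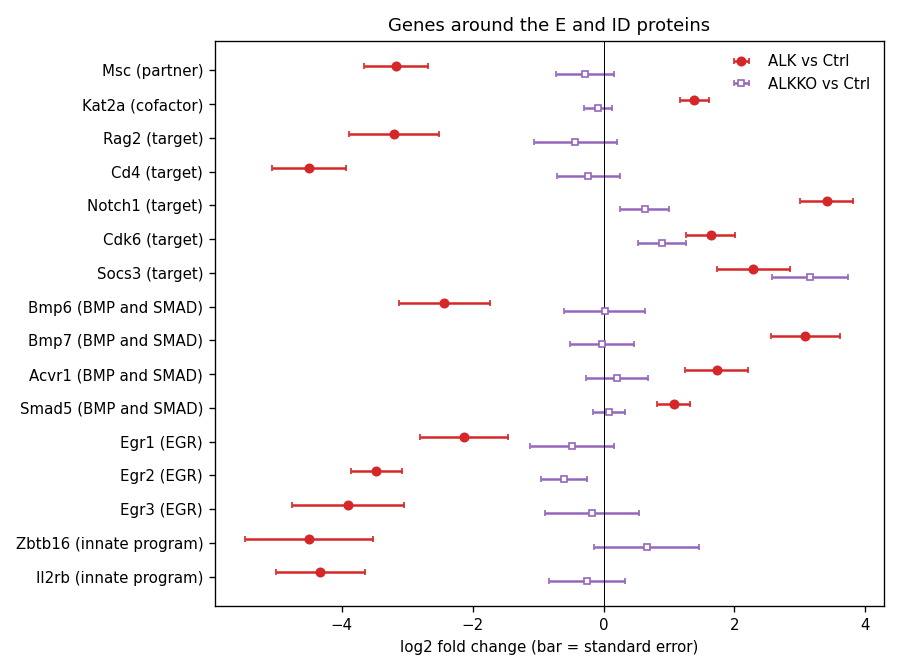
Fitted log2 fold changes (x axis, bars are standard errors) of the genes named by rule from the partner, cofactor, target, BMP and SMAD, early growth response and innate lists (y axis), in ALK against Ctrl (filled red circles, all called) and ALKKO against Ctrl (open purple squares, none called by edgeR, Socs3 called by DESeq2). Eomes, with at most 1 read per ALK library, is left out. Socs3 is the gene with the largest ALKKO value, 3.16.

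Across the 12 libraries the genes whose log2(CPM + 1) followed each member most closely were found by Pearson's r over 14592 genes, as a description, since all libraries share the groups. Closest to Tcf3 were R3hcc1 (r = 0.98), Tsta3 (0.97) and Smim24 (0.96). Closest to Tcf12 were Casc4 (0.97), Morn2 and Nck2 (0.95 each). Closest to Tcf4 were Ggct (0.99), Pctp and Shtn1 (0.98 each), and all of these, like Tcf4, were higher in KO2 than in the other KO libraries and highest in ALK2 or ALK3. For Id1 the closest were Slc48a1 (0.94), Plekhg5 and Dbn1 (0.93 each), for Id2 Arrdc4 (0.93), Nckap1l and D630039A03Rik (0.92 each), and for Id3 Crot (0.97), Arhgef6 and Flna (0.96 each). Flna, which encodes the actin crosslinker filamin A, had 268, 391 and 1023 CPM in ALK and 764 to 790 CPM in Ctrl, so the low ALK1 and ALK2 and the high ALK3 seen for Id3 recur in it. Among the members, Tcf3 and Tcf12 had r = 0.71 over 12 libraries and 0.59 over the 9 thymus libraries, Id2 and Id3 had 0.54 and 0.10, and Tcf12 and Id3 had -0.59 and -0.21.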

How the data were processed

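RNA-seq was available for 12 mice, 3 per group, with 1 count file each. Groups, replicate numbers, ages and sexes follow the labels. The authors prepared stranded poly(A) libraries with 50-nt single-end reads, checked them with FastQC, trimmed them with Trim Galore, aligned them to mm10 with STAR and deposited raw counts of reads per gene from HTSeq. The submitters' processing notes also list Picard 2.19.2 and DESeq2. Other versions, the annotation release and the strand setting are not given in the sources used here. Symbols and positions come from GENCODE M21 on GRCm38, in which 50376 of the 50600 gene IDs were found once version numbers were dropped. Of all counted alignments, 43.8% to 55.3% were not assigned to a single gene, 39.2% to 51.8% because they were not unique, and these were left out. A count of 3, taken as the floor (counting error only), was worth 0.159 to 0.241 CPM. Libraries of a group were compared by chi-square and none were alike. Whether the mice shared litters is not stated, and p values measure the spread between these mice.

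The main test was edgeR's quasi-likelihood F test (version 4.0.16, R 4.3.3) on TMM-normalized counts after filterByExpr, with robust dispersions, a mean for each group and all 12 libraries in the fit. P values were adjusted by Benjamini-Hochberg over 16052 genes, and the code was tested on simulated data. DESeq2 1.42.0 served as an alternative. Single genes were also compared by exact two-sided permutation tests (scipy 1.17.1). Lengths per kb are unions of GENCODE exons. Python 3.11.15 with pandas 2.3.3 and matplotlib 3.10.9 was used. Members and lists were chosen with earlier results of these data known. Named were the 6 members, Id4, Dnmt1, Alk, up to 3 called genes per direction and list averaging 1 CPM or more and with the largest change in ALK against Ctrl, and the 3 genes most like each member. Hes1, Cdkn1a, Rora, Olig1, Tal1, Lyl1, Lmo2, Ptcra, Dntt, Rag1 and Bmp2 were named after their values were seen. Planned protein comparisons were not made. Some genes that the lists hold and the counts include are not reported here by name.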

Additional observations from a re-analysis of the deposited data

Results flagged for a closer look

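The Tcf4 difference between mice with and without NPM-ALK was unlike with and without Dnmt1, by a test of the difference itself: the interaction was -1.98 on the log2 scale (SE 0.41, edgeR quasi-likelihood adjusted p = 0.0179). Tcf4 was higher in 3 of 3 ALK libraries (116 to 242 CPM) than in every Ctrl library (58.4 to 72.1 CPM). Of the 3 ALKKO libraries 2 were lower than every KO library, but only narrowly (71.3 and 70.7 against 72.6 CPM or more). Without KO2 the log2 difference of ALKKO against KO was -0.03. Only the ALK libraries come from tumors, so tissue and Dnmt1 status cannot be told apart in this term.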

How the results depend on the processing

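With 3 mice a group, a single library could make or end a call. Each result was recomputed under 9 other settings and with each of the 12 libraries left out in turn. Under glmTreat, which tests for a fold beyond the threshold itself, 0 of the 6 genes were called in ALK against Ctrl (Tcf4 1.59), in ALK against ALKKO (Tcf4 1.42) and for the interaction. Over the 12 fits without 1 library, 1 to 2 of the 6 genes were called in ALK against Ctrl and in ALK against ALKKO, and 0 to 2 for the interaction. The Tcf4 difference of ALK against Ctrl stayed called in all of them. The cause of a lost or changed call was not tested.

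With the labelled age in the fit, the log2 difference of Id2 turned to -0.37 (ALK against Ctrl), -0.38 (ALK against ALKKO) and 0.01 (ALKKO against Ctrl), that of Id3 to 0.08 (KO against Ctrl) and that of Tcf3 to 0.00 (ALKKO against Ctrl). With sex in the fit, which takes up the only female library KO2, values in KO against Ctrl became 0.13 (Tcf12), -0.17 (Id1) and -0.10 (Id2), and in ALKKO against KO -0.02 (Tcf12), 0.45 (Id1) and 0.05 (Id2).

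Over the fits without 1 library, log2 differences of ALK against Ctrl ranged from 1.27 to 2.11 for Id1, from -0.51 to 0.72 for Id2 and from -2.27 to -0.22 for Id3, and those of ALK against ALKKO from -0.45 to 0.77 for Id2 and from -1.83 to 0.23 for Id3. In KO against Ctrl the ranges were -0.35 to 0.13 (Tcf12), -0.17 to 0.85 (Id1) and -0.10 to 0.39 (Id2). In ALKKO against Ctrl they were -0.08 to 0.07 (Tcf3), -0.26 to 0.58 (Id1) and -0.14 to 0.03 (Id2). In ALKKO against KO they were -0.02 to 0.45 (Tcf12), -0.71 to 0.45 (Id1) and -0.44 to 0.05 (Id2). For the interaction they were -0.95 to 0.28 (Id2) and -0.05 to 2.02 (Id3).

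The replicate numbers do not pair the mice: of 18 pairs with the same number, 5 had correlated deviations above 0.1 (range -0.106 to 0.426), and 5 of 12 libraries correlated best with their own number. With the number as a block, the same counts of the 6 genes were called in every comparison, Tcf4 with 1.54 in ALK against Ctrl (adjusted p = 0.00673) and -1.88 for the interaction (adjusted p = 0.0282). The block left 5 genes of the whole table called in ALKKO against Ctrl, where the fit without it called 29, and 0 in KO against Ctrl in place of 3. Over all genes, DESeq2's Wald test called 42, 98, 24 and 2486 genes in KO against Ctrl, ALKKO against Ctrl, ALKKO against KO and the interaction, where the edgeR test called 3, 29, 1 and 1433, and glmTreat called 1325, 1345 and 443 in ALK against Ctrl, ALK against ALKKO and the interaction, where the edgeR test called 3281, 3145 and 1433.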
